A study of Mus musculus with 12 samples.

Results

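The interferon-induced genes Ifit1, Ifit2, Ifit3 and Ifit3b (the IFIT family), Isg15, Isg20 and Rsad2 were followed in blood neutrophils of mice given lipopolysaccharide (LPS) or saline. The 7 genes were taken by symbol from the NCBI Gene IDs of the expression table, and all 7 were among its 9374 genes. They come from a 2 by 2 comparison of genotype and treatment in female mice with 4 groups of 3 RNA sequencing libraries. KO-LPS libraries came from mice labelled Hmgb1ΔMye, taken 16 hours after LPS at 0.5 mg/kg, and WT-LPS libraries from wild-type (WT) mice with the same treatment. KO-Saline and WT-Saline libraries came from Hmgb1ΔMye and WT mice that received saline for the same time. A name in ΔMye usually stands for a gene deleted in the myeloid lineage, to which neutrophils belong. The sources used here do not give the Cre driver, the mouse strain or the age. LPS, a part of the bacterial cell envelope sensed by Toll-like receptor 4, was given to the mice and not to isolated cells.

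The 7 genes belong to the antiviral programme that interferons switch on. Type I interferons bind a receptor whose kinases activate transcription factors. Among these Stat2 works with Irf9 at the interferon-stimulated response element (ISRE) in front of such genes. LPS can start the same programme, because Toll-like receptor 4 also signals to the production of interferon beta. The IFIT proteins are built from tetratricopeptide repeats and bind viral RNA. Ifit1 recognises RNA whose cap lacks a methyl group that host messenger RNA carries, human IFIT2 binds RNA rich in A and U, and human IFIT3 is known to stabilise the IFIT1 complex. Isg15 is a ubiquitin-like protein that is joined to other proteins or released from cells, Isg20 is an exonuclease that degrades RNA, and Rsad2, also called viperin, makes a chain-terminating nucleotide from CTP.

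The letters in front of 5 of the 7 genes are shown because these 5 hold the ISRE core, which Ifit2 and Isg20 do not in their windows. The sequences are from RefSeq (GRCm38.p6, the mm10 assembly) and are given in the direction of the gene, with ISRE matches in capitals. The motif searched was GAAA, any 2 bases and GAAA again, on both strands, so that the reverse form reads TTTC, any 2 bases and TTTC.
Ifit1, chr19:34640755-34640843, plus strand: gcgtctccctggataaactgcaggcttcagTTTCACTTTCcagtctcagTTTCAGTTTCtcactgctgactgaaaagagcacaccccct
Ifit3, chr19:34583343-34583446, plus strand: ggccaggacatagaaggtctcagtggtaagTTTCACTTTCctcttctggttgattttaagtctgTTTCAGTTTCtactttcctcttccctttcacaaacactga
Ifit3b, chr19:34607739-34607842, plus strand: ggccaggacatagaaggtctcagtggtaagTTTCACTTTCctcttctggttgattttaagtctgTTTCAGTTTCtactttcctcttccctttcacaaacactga
Isg15, chr4:156200845-156200926, minus strand: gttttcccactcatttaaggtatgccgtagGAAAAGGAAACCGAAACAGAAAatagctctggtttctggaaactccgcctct
Rsad2, chr12:26456533-26456602, minus strand: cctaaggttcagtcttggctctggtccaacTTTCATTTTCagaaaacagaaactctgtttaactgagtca
Ifit1, Ifit3 and Ifit3b each held 2 matches, and the same pair of matching letters, TTTCACTTTC and then TTTCAGTTTC, stood in all 3. Isg15 held 3 matches that overlap one another, and Rsad2 held 1. The Ifit3 and Ifit3b stretches have the same 104 bases. In the part of their promoter windows that could be aligned, they agreed at 258 of 260 bases (99.2%).

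A promoter window ran from 250 bases before to 50 bases after the RefSeq start of a gene. The ISRE core stood in 1131 of all 32851 such windows (3.44%). Neither Ifit2, with 2 windows, nor Isg20, with 3 windows, had a match, which says only that these letters are not in those windows. Among measured genes with a window, 18 of 300 with an ISRE core (6%) were called higher with LPS in KO-labelled libraries, against 1.96% of the 7184 without one. In WT libraries 47 of the 300 (15.7%) were called higher, against 6.4% of those without one. The members with an ISRE core are among the 300, so these shares include the members' own calls. A match is a description of the letters and does not show that a factor was bound.

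The 4 IFIT genes lie in 1 cluster on chromosome 19. In mm10 (GENCODE M21 annotation) and in order along the plus strand they are Ifit2 (chr19:34550694-34576419), Ifit3 (chr19:34583531-34588731), Ifit3b (chr19:34607970-34613401) and Ifit1 (chr19:34640871-34650009). Isg20 lies on the plus strand of chromosome 7 (chr7:78913424-78920396). Isg15 (chr4:156199424-156200818) and Rsad2 (chr12:26442746-26456452) lie on minus strands. All 7 are annotated as protein-coding, and none of their exons overlaps an exon of another annotated gene on either strand.

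Depth was low, with 399702 to 526757 reads per library in the table. The mean reads per library of a gene had a median of 11.3 over all genes. Levels are given in CPM, which are reads divided by the scaled size of the library. A count of 0 in a library allows up to 3 reads, which is 5.58 to 8.0 CPM, and intervals on reads cover counting error only. Of 10 mature neutrophil markers all 10 were measured, and their summed level was 19600 to 21500 CPM in KO-LPS and 17000 to 19900 CPM in WT-LPS libraries, against 18300 to 18800 CPM in KO-Saline and 13300 to 17900 CPM in WT-Saline libraries. KO-LPS lay wholly above KO-Saline and KO-Saline wholly above WT-Saline, and the part of this in the members' levels was not tested. Hmgb1, the targeted gene, had 6, 30 and 16 reads in the KO-LPS libraries and 14, 15 and 34 reads in the WT-LPS libraries, while KO-Saline libraries had 14, 10 and 25 and WT-Saline libraries 8, 17 and 12 reads. It was not lower in the libraries labelled KO (averaged log2 difference 0.16 ± 0.40 SE, limma adjusted p = 0.978). Its reads were counted over the whole gene, undeleted exons and possibly gene copies included, so they do not check the labels, and the libraries are called KO-labelled. Among 230 long non-coding RNAs that lie over a measured coding gene on the other strand, 168 had the higher read number of the pair (73.0%, exact 95% interval 66.8% to 78.7%). The sources used here do not give the strand setting of the counting, and if it were the opposite of the kit's the values of all genes would be in doubt. Whether the 3 libraries of a group are from different mice is not stated, and p-values therefore measure the spread between libraries, which may be technical.

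The members were neither the most abundant genes nor rare ones. Rsad2 ranked 911 with a mean of 99.6 reads per library over all 12, Ifit1 1084 with 83.7, and Isg20 1848 with 48.1. Ifit3 had 44.5, Ifit3b 29.7, Isg15 25.8 and Ifit2 20.9 reads per library. Divided by the length of their exons, levels in WT-LPS libraries were close for Isg15, at 163 ± 30.3 CPM per kilobase, and Ifit1, at 157 ± 14.8 (SD, n = 3). Ifit3 stood at 125 ± 44.3, Rsad2 at 97.5 ± 37.4 and Isg20 at 92 ± 30.7 CPM per kilobase on the same scale. Ifit3b, at 48.4 ± 4.33, and Ifit2, at 28.8 ± 11.8 CPM per kilobase, were the lowest. In WT-Saline libraries the order differed, with Isg20 first at 46.9 ± 5.14 and Ifit2 last at 1.22 ± 0.53 CPM per kilobase.

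The first question was how the genes responded to LPS in each genotype. In KO-labelled libraries 3 of the 7 were called higher, namely Ifit1, Ifit2 and Ifit3, where 1.99% of all genes were called higher. In WT libraries 5 of the 7 were called higher, namely Ifit1, Ifit2, Ifit3, Isg15 and Rsad2, where 6.72% of all genes were. None was called lower in either genotype. The estimates of all 7 lay above 0 in both genotypes, as did 54.7% of all genes in KO-labelled and 52.4% in WT libraries. An unadjusted p under 0.05 in limma was seen for 5 members and 17.2% of all genes in KO-labelled libraries. In WT libraries it was seen for all 7 members and 24.4% of all genes. The median log2 fold change of the 7 was 1.13 in KO-labelled libraries, against 0.09 over all genes, and 2.42 in WT libraries, against 0.06 over all genes. A call here means an adjusted p under 0.05 in limma's moderated test, with Benjamini-Hochberg adjustment over all 9374 genes, and the value after ± beside a log2 fold change is the standard error. In bulk samples such as these, fewer cells of a type and less RNA per cell cannot be told apart.

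**Figure D1:**
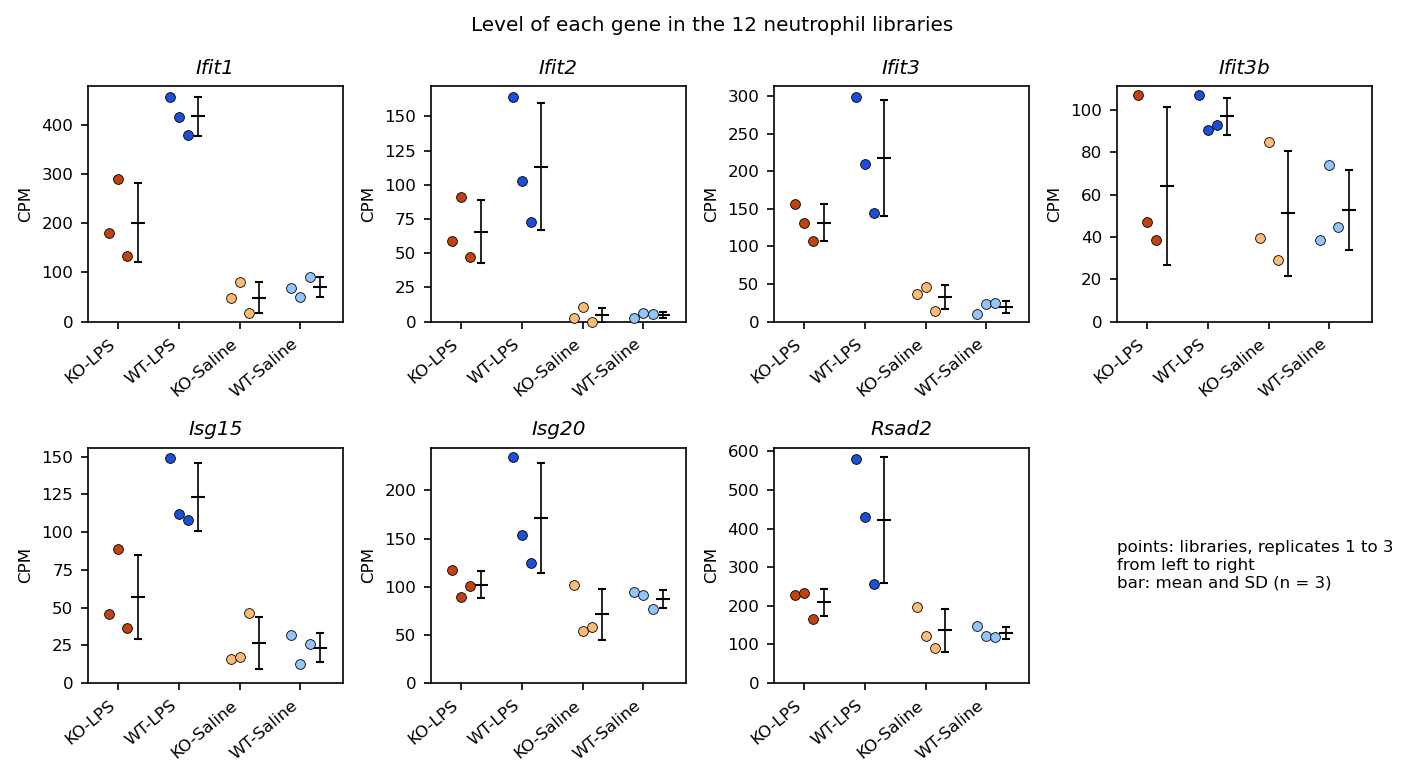
Level of each of the 7 genes in CPM (y axis, linear, 1 panel per gene with its own scale) in the 12 libraries, by group on the x axis. Points are libraries, and the bar beside them is the mean with its SD (n = 3). WT-LPS libraries have the highest mean in every panel, from 96.8 CPM for Ifit3b to 422 CPM for Rsad2.

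Ifit2, the member with the lowest level in saline, had the largest fold changes. It had 58.7, 91.3 and 47.2 CPM in KO-LPS libraries and 164, 103 and 72.5 CPM in WT-LPS libraries, replicates 1 to 3 in each. In KO-Saline libraries it had 2.62, 10.8 and 0 CPM, and in WT-Saline libraries 2.42, 6.34 and 5.59 CPM. These saline values are at most 5 reads a library, and every LPS library lay above every saline library. Pooled over 3 libraries there were 81 reads in KO-LPS against 6 in KO-Saline, a ratio of 13.6 (95% counting interval 5.97 to 38.1), and 157 in WT-LPS against 7 in WT-Saline, a ratio of 22.3 (10.6 to 56.3). The log2 fold change was 4.07 ± 0.76 in KO-labelled libraries (adjusted p = 0.00309) and 4.27 ± 0.76 in WT libraries (adjusted p = 0.00026). The KO-labelled call ended when KO-LPS replicate 2 was left out (adjusted p = 0.0532), and the value moved to 3.23 without KO-Saline replicate 3 and to 4.88 without KO-Saline replicate 2.

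Ifit1, the IFIT gene with the most reads, was at 181, 289 and 133 CPM in KO-LPS libraries and at 457, 415 and 379 CPM in WT-LPS libraries. It was at 47.2, 80.3 and 17 CPM in KO-Saline libraries and at 67.8, 50.7 and 91.3 CPM in WT-Saline libraries. The groups fell into 3 separate levels: WT-LPS on top, KO-LPS below it with no overlap, and both saline groups under all LPS libraries and overlapping each other. The log2 fold change with LPS was 2.21 ± 0.40 in KO-labelled libraries (adjusted p = 0.00217) and 2.59 ± 0.40 in WT libraries (adjusted p = 4.31e-05). It was the only member called in both genotypes without each library in turn, with adjusted p up to 0.0429 in KO-labelled and 0.00105 in WT libraries. The KO-labelled value lay between 1.61, without KO-Saline replicate 3, and 2.69, without KO-Saline replicate 2.

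Ifit3 had 157, 131 and 107 CPM in KO-LPS libraries and 299, 209 and 145 CPM in WT-LPS libraries. In saline it had 36.7, 45.6 and 14.6 CPM in KO-Saline libraries and 9.68, 23.3 and 24.2 CPM in WT-Saline libraries. All LPS libraries again lay above all saline libraries, and the genotypes overlapped within each treatment. The log2 fold change was 2.11 ± 0.44 in KO-labelled libraries (adjusted p = 0.00697) and 3.48 ± 0.44 in WT libraries (adjusted p = 4.93e-06). The call in KO-labelled libraries ended when KO-LPS replicate 2 (adjusted p = 0.0592) or KO-Saline replicate 3 (adjusted p = 0.0609) was left out.

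Ifit3b, a near copy of Ifit3, did not pass in either genotype. Its levels were 107, 46.9 and 38.6 CPM in KO-LPS libraries and 107, 90.7 and 92.9 CPM in WT-LPS libraries. In saline they were 39.4, 84.6 and 29.2 CPM in KO-Saline libraries and 38.7, 74 and 44.7 CPM in WT-Saline libraries. The WT-LPS libraries all lay above the WT-Saline libraries, while KO-LPS and KO-Saline overlapped. The log2 fold change was 0.32 ± 0.44 in KO-labelled libraries (adjusted p = 0.774) and 0.92 ± 0.44 in WT libraries (adjusted p = 0.197). The first of these turned to -0.12 without KO-LPS replicate 1.

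Ifit3 and Ifit3b share much of their sequence, so their counts can depend on how reads were assigned. Their longest transcripts agreed at 1663 of 1697 aligned bases (98%), while the other IFIT pairs agreed at 60% to 63.8%. Of the 50-base stretches in the transcripts of Ifit3, 51.2% also stood in Ifit3b, and 45% of those of Ifit3b also stood in another gene. The share was 7.13% for Ifit1, most of it with Ifit1bl2, 3.96% for Isg15, and 0% for Ifit2, Isg20 and Rsad2. The sources used here do not say how reads with more than 1 match were counted, so the split between Ifit3 and Ifit3b is uncertain.

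The makeup of the IFIT reads differed between treatments. Of the reads on the 4 IFIT genes, Ifit3b took 13.8% ± 6.6 in KO-LPS and 11.7% ± 1.62 in WT-LPS libraries, against 39.2% ± 8.41 in KO-Saline and 35.9% ± 10.8 in WT-Saline libraries (SD, n = 3). Ifit2 took 14.2% ± 2.38 in KO-LPS and 13% ± 2.73 in WT-LPS libraries, against 2.33% ± 2.46 in KO-Saline and 3.17% ± 1.05 in WT-Saline libraries. For both genes the LPS and saline ranges did not overlap in either genotype. Ifit3, whose reads cannot be split surely from those of Ifit3b, took 29.2% ± 5.04 in KO-LPS and 25.2% ± 4.05 in WT-LPS libraries, against 24.6% ± 4.32 in KO-Saline and 12.6% ± 3.86 in WT-Saline libraries. Its ranges did not overlap in WT libraries and overlapped in KO-labelled libraries. Ifit1 took 42.8% ± 8.09 in KO-LPS and 50.1% ± 5.24 in WT-LPS libraries, against 33.9% ± 5.17 in KO-Saline and 48.4% ± 13.4 in WT-Saline libraries. These shares rest on 567 reads in KO-LPS and 1192 reads in WT-LPS libraries, against 175 in KO-Saline and 211 in WT-Saline libraries.

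**Figure D2:**
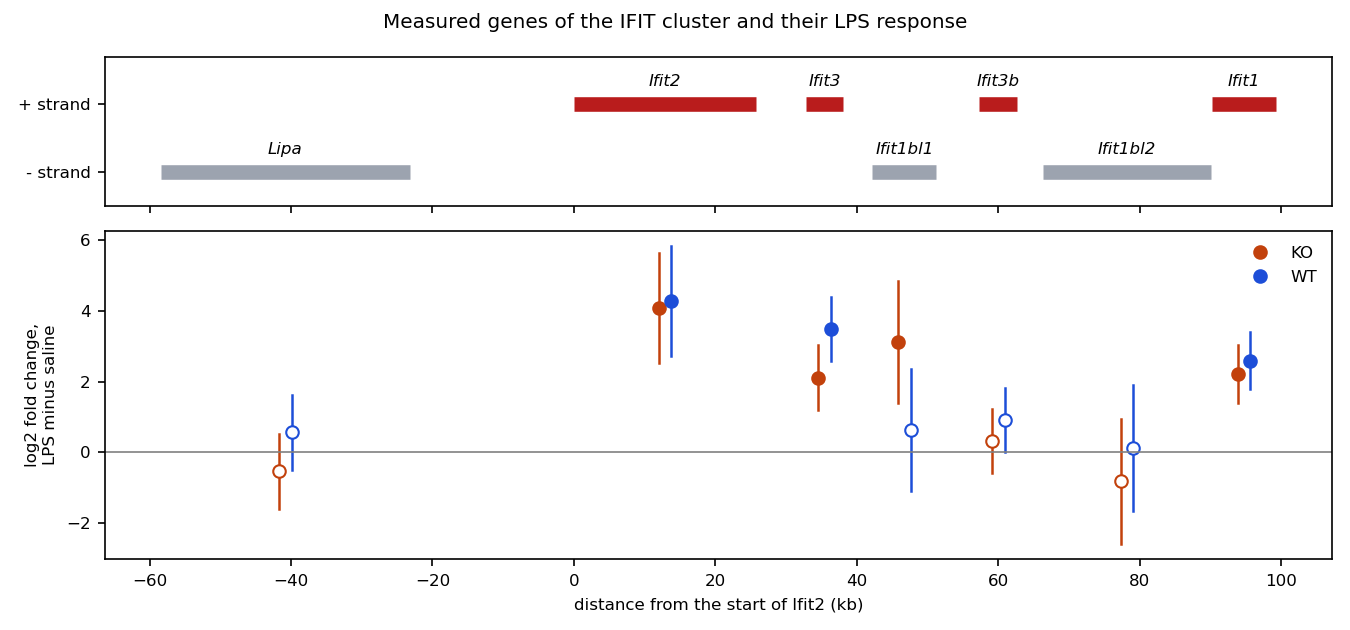
The measured genes of the IFIT cluster by distance from the start of Ifit2 in kilobases (x axis), drawn to scale on their strands above, and their log2 fold change with LPS (y axis) with 95% intervals below, for KO-labelled libraries on the left of each pair and WT on the right. Filled points passed adjusted p under 0.05: Ifit2, Ifit3 and Ifit1 in both genotypes and Ifit1bl1 at 3.12 in KO-labelled libraries, while Ifit3b is at 0.32 in KO-labelled and 0.92 in WT libraries.

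The other measured genes of the cluster, Lipa, Ifit1bl1 and Ifit1bl2, lie on the minus strand. Ifit1bl2 starts 128 bases from Ifit1 and runs away from it. It had 41 reads in KO-LPS and 35 in WT-LPS libraries, against 41 in KO-Saline and 42 in WT-Saline libraries, and did not pass (adjusted p = 0.695 in KO-labelled and 0.953 in WT libraries). Ifit1bl1, between Ifit3 and Ifit3b, had 11, 11 and 5 reads in KO-LPS libraries against 1, 1 and 0 in KO-Saline libraries, a pooled ratio of 13.6 (3.41 to 118; adjusted p = 0.0346). It had 17, 14 and 8 reads in WT-LPS libraries against 11, 7 and 6 in WT-Saline libraries (0.64 ± 0.84, adjusted p = 0.715). The call in KO-labelled libraries ended when any of WT-LPS replicates 1 and 2, KO-Saline replicates 2 and 3, or KO-LPS replicates 2 and 3 was left out (adjusted p = 0.0521 to 0.205), and in a fit of the KO-labelled libraries alone (adjusted p = 0.179), with voom precision weights (adjusted p = 0.0593) and without a mean-variance trend (adjusted p = 0.0664). Lipa, which encodes lysosomal acid lipase, had log2 fold changes of -0.53 ± 0.52 in KO-labelled and 0.57 ± 0.52 in WT libraries.

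Isg15 had 45.4, 88.8 and 36.4 CPM in KO-LPS libraries and 149, 112 and 108 CPM in WT-LPS libraries. It had 15.7, 17.4 and 46.2 CPM in KO-Saline libraries and 31.5, 12.7 and 26.1 CPM in WT-Saline libraries. WT-LPS lay above all other libraries, and KO-LPS overlapped KO-Saline, whose replicate 3 stood above KO-LPS replicates 1 and 3. The log2 fold change was 1.13 ± 0.50 in KO-labelled libraries (adjusted p = 0.238) and 2.42 ± 0.50 in WT libraries (adjusted p = 0.00143). Pooled reads were 70 in KO-LPS against 33 in KO-Saline, and 174 in WT-LPS against 33 in WT-Saline.

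Isg20 had 117, 88.8 and 101 CPM in KO-LPS libraries and 235, 154 and 125 CPM in WT-LPS libraries. Its saline levels were high, with 102, 54.2 and 58.4 CPM in KO-Saline libraries and 94.4, 90.9 and 76.4 CPM in WT-Saline libraries. WT-LPS lay above the other 3 groups, which overlapped. It did not pass, with 0.56 ± 0.33 in KO-labelled libraries (adjusted p = 0.415) and 0.92 ± 0.33 in WT libraries (adjusted p = 0.0739). The WT value passed without KO-LPS replicate 1 (adjusted p = 0.0435) and in a fit of the WT libraries alone (adjusted p = 0.0292).

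Rsad2 had 227, 232 and 167 CPM in KO-LPS libraries and 581, 430 and 256 CPM in WT-LPS libraries. In saline it had 197, 122 and 90.0 CPM in KO-Saline libraries and 148, 123 and 119 CPM in WT-Saline libraries. WT-LPS lay above all other libraries, its own spread wide, and KO-LPS overlapped KO-Saline. The log2 fold change was 0.67 ± 0.31 in KO-labelled libraries (adjusted p = 0.256) and 1.62 ± 0.31 in WT libraries (adjusted p = 0.000542). Of the genes beside it, Cmpk2, whose enzyme makes the CTP that viperin uses, had 1.19 ± 0.41 in KO-labelled libraries (adjusted p = 0.114) and 1.13 ± 0.41 in WT libraries (adjusted p = 0.0753). The WT value of Cmpk2 passed with voom precision weights (adjusted p = 0.0469), in a fit of the WT libraries alone (adjusted p = 0.00782), and without KO-Saline replicate 3 or KO-LPS replicate 1 (adjusted p = 0.0369 and 0.0379). Rnf144a, on its other side, had -0.50 ± 0.27 in KO-labelled libraries (adjusted p = 0.343) and fell by 0.86 on the log2 scale in WT libraries (adjusted p = 0.0325). Leaving out WT-Saline replicate 1 or 3 or any WT-LPS replicate ended that call, as did a model without a mean-variance trend (adjusted p = 0.177). In KO-labelled libraries Rnf144a was called lower without KO-LPS replicate 1 (-0.78, adjusted p = 0.0416).

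Without a mean-variance trend in the model, none of the 7 was called in KO-labelled libraries and 4 were called in WT libraries, where Rsad2 was lost (adjusted p = 0.0514). In KO-labelled libraries the LPS libraries lay wholly above the saline libraries for 3 members and for 9.67% of all genes, and in WT libraries for all 7 members and for 16.5% of all genes. KO-LPS replicate 1 stood apart in the series as a whole: without it the model called 1076 genes in KO-labelled libraries, against 314 with it. For the members it was not the lowest KO-LPS library of any, and without it Ifit1, Ifit2 and Ifit3 had log2 fold changes of 2.24, 4.12 and 1.98, all still called. Without KO-LPS replicate 2 the KO-labelled libraries gave 1 called member, Ifit1, and 32 called genes in all.

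**Figure D3:**
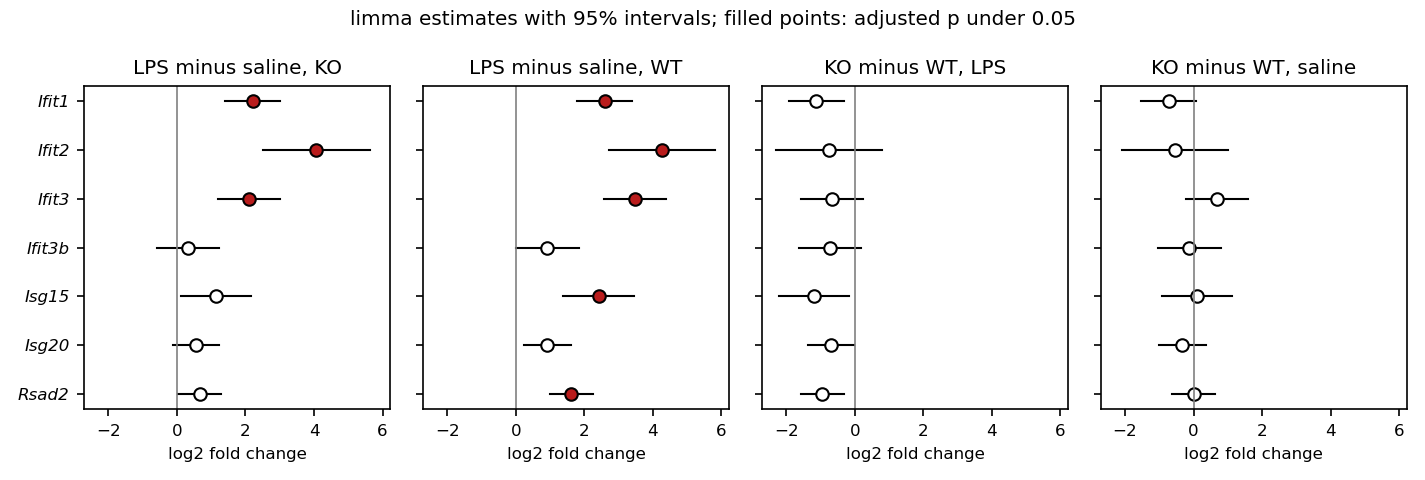
Log2 fold change of each of the 7 genes (x axis, limma estimate with its 95% interval) for LPS minus saline in KO-labelled and in WT libraries and for KO minus WT in LPS and in saline. Filled points passed adjusted p under 0.05: 3 genes in KO-labelled and 5 in WT libraries, and none between genotypes, where all 7 estimates in LPS lie below 0, from -1.18 to -0.67.

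The second question was whether the genotypes differed. Under LPS all 7 members had lower estimates in KO-labelled than in WT libraries, by 0.67 to 1.18 log2 units, and none passed the test. The libraries of the 2 groups did not overlap for Ifit1, Isg15, Isg20 and Rsad2, 4 of 7, where 5.47% of all genes had KO-LPS libraries wholly below WT-LPS libraries. Of all genes 50.6% had an estimate below 0, and the median was -0.75 for the members and -0.01 for all genes. No gene of the table was called here (0%), 471 genes (5.02%) had an unadjusted p under 0.05, and limma with voom precision weights called 1 gene, which was no member. The 4 members without overlap were among the 471. The 7 members vary together over the libraries, so these counts are not 7 separate observations of a genotype difference.

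Ifit1 averaged 201 ± 79.7 CPM in KO-LPS and 417 ± 39.2 CPM in WT-LPS libraries (SD, n = 3). Its log2 difference was -1.12 ± 0.40 (limma adjusted p = 0.857, unadjusted 0.00851), and its pooled reads had a ratio of 0.478 (95% counting interval 0.411 to 0.556). Rsad2 averaged 209 ± 35.9 CPM in KO-LPS and 422 ± 162 CPM in WT-LPS libraries, a log2 difference of -0.95 ± 0.31 (limma adjusted p = 0.856, unadjusted 0.00438). The counting intervals are narrower than the spread between libraries, which is what the test uses. Isg15 averaged 56.9 ± 28 CPM in KO-LPS and 123 ± 22.9 CPM in WT-LPS libraries, a log2 difference of -1.18 ± 0.50 (limma adjusted p = 0.949). Isg20 averaged 102 ± 14.3 CPM in KO-LPS and 171 ± 57 CPM in WT-LPS libraries, a log2 difference of -0.69 ± 0.33 (limma adjusted p = 0.949).

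The overlapping members were Ifit2, Ifit3 and Ifit3b. Ifit2 averaged 65.7 ± 22.9 CPM in KO-LPS and 113 ± 46.3 CPM in WT-LPS libraries, a difference of -0.75 ± 0.76 with a 95% interval from -2.30 to 0.81. Ifit3 averaged 132 ± 25.1 CPM in KO-LPS and 217 ± 77.2 CPM in WT-LPS libraries, a difference of -0.67 ± 0.44 with a 95% interval from -1.58 to 0.24. Ifit3b averaged 64.1 ± 37.2 CPM in KO-LPS and 96.8 ± 8.66 CPM in WT-LPS libraries, a difference of -0.72 ± 0.44 with a 95% interval from -1.63 to 0.18. These intervals include both no difference and a level in KO-LPS libraries well under that in WT-LPS libraries. With each library left out in turn and under each other setting tried, the estimates of all 7 members remained below 0, and none was called, except that Ifit2 was not tested where genes under the median level were left out.

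In saline the genotypes showed no common direction. No member was called, where 0.0107% of all genes (1 gene) was, and the groups overlapped for all 7. Ifit3 was at 32.3 ± 16 CPM in KO-Saline and 19 ± 8.13 CPM in WT-Saline libraries, a log2 difference of 0.69 ± 0.44 (limma adjusted p = 0.816). Ifit1 was at 48.2 ± 31.6 CPM in KO-Saline and 69.9 ± 20.4 CPM in WT-Saline libraries, a log2 difference of -0.73 ± 0.40 (limma adjusted p = 0.779). Rsad2 was at 136 ± 54.9 CPM in KO-Saline and 130 ± 15.5 CPM in WT-Saline libraries, with a 95% interval of the log2 difference from -0.63 to 0.63. Over all 7 the median difference was -0.12, against -0.02 for all genes. Averaged over both treatments the lowest member estimate was that of Ifit1, at -0.92 ± 0.28 (adjusted p = 0.721), and no member was called, where 0.0107% of all genes was.

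The interaction, taken as the log2 fold change with LPS in KO-labelled libraries less the one in WT libraries, was below 0 for all 7 members and called for none. No gene of the table was called by limma (0%), 560 had an unadjusted p under 0.05, and voom precision weights called 2 genes, neither a member. Ifit3 had the lowest value, -1.36 ± 0.63 (limma adjusted p = 0.82, unadjusted 0.0382), followed by Isg15 at -1.28 ± 0.71 (adjusted p = 0.867) and Rsad2 at -0.95 ± 0.43 (adjusted p = 0.82, unadjusted 0.0367). Ifit1, at -0.39 ± 0.56, and Ifit2, at -0.21 ± 1.07, had values near 0 with wide intervals, from -1.53 to 0.76 and from -2.40 to 1.99. The sign of both turned without KO-Saline replicate 2, to 0.10 and 0.61, and that of Ifit2 also without WT-Saline replicate 1, WT-LPS replicate 1 or KO-LPS replicate 3 (0.0023 to 0.11). The difference in the number of called members, 3 in KO-labelled and 5 in WT libraries, is therefore not shown to be a difference in response. The median interaction was -0.60 for the members and 0.01 for all genes, of which 49.3% lay below 0. Here too the members are not independent of one another.

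Summed over the 7 genes, the level was 894, 967 and 630 CPM in KO-LPS libraries and 1990, 1510 and 1180 CPM in WT-LPS libraries. In saline it was 441, 414 and 255 CPM in KO-Saline libraries and 392, 380 and 387 CPM in WT-Saline libraries. In this sum the 3 KO-LPS libraries stood between the WT-LPS libraries and both saline groups, without overlap on either side. Among single members only Ifit1 had that order, and the others overlapped on at least 1 side. Ifit1 and Rsad2 weigh most in the sum, with WT-LPS means of 417 and 422 CPM. The share of all genes with that order was not computed. Replicate 1 was the highest WT-LPS library for each of the 7 genes, and replicate 3 the lowest KO-LPS library for 6 of them.

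The members were also set against one another over the 12 libraries. With the mean of the other 6, each standardized on the log2 scale, the correlation was 0.933 for Ifit1, 0.925 for Ifit2, 0.923 for Rsad2 and 0.912 for Ifit3. It was lower for Isg20 (0.805), Isg15 (0.737) and Ifit3b (0.649). These values describe 12 libraries in 4 groups, which share the LPS response and differ in depth, and their differences were not tested. Among 3441 genes with at least 20 reads per library, those with the highest correlation with the mean of all 7 were Vasp (0.963), Oas3 (0.960), A930037H05Rik (0.958), Rnf213 (0.954), Rab5c (0.930) and Gm10865 (0.929).

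Oas3, an antiviral oligoadenylate synthetase, had 594 ± 23.1 CPM in KO-LPS and 821 ± 57 CPM in WT-LPS libraries, against 356 ± 21.1 CPM in KO-Saline and 356 ± 21.2 CPM in WT-Saline libraries (SD, n = 3). Vasp, an actin regulator, had 647 ± 27.3 CPM in KO-LPS and 876 ± 32.1 CPM in WT-LPS libraries, against 428 ± 66 CPM in KO-Saline and 462 ± 65.7 CPM in WT-Saline libraries. In both WT-LPS lay above KO-LPS without overlap, an order that the mean of the members also has and that the choice of these genes by likeness therefore favours. A930037H05Rik and Rnf213 overlap by 1476 exon bases on opposite strands, and Gm10865 overlaps Triobp by 93, so their values are uncertain.

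The other genes of the interferon pathway were read from lists by role. With LPS 1.99% of all genes were called higher in KO-labelled and 6.72% in WT libraries. A lone call in a short list therefore says little about that list. Of 6 interferon genes themselves, none was among the genes of the table. Of 9 receptor and kinase genes, all 9 were measured and none was called in KO-labelled libraries. In WT libraries 1 was called higher, Ifnlr1, a subunit of the lambda interferon receptor. It had 118 reads in WT-LPS against 27 in WT-Saline libraries (2.78 ± 0.59, adjusted p = 0.00166, or 0.0672 without a mean-variance trend). In KO-labelled libraries Ifnlr1 had 140 reads in KO-LPS against 72 in KO-Saline libraries (0.92 ± 0.59, adjusted p = 0.455). Its saline level was 58.5 ± 25.1 CPM in KO-Saline and 17.4 ± 19.3 CPM in WT-Saline libraries (SD, n = 3), with overlap, a log2 difference of 2.23 ± 0.59 that did not pass (limma adjusted p = 0.294). Of 6 measured signal factors, 1 was called higher in KO-labelled libraries and 3 in WT libraries. Irf7, the factor that amplifies interferon production, had 127, 198 and 251 reads in KO-LPS against 57, 61 and 43 in KO-Saline libraries, and 261, 332 and 274 in WT-LPS against 49, 72 and 81 in WT-Saline libraries. It was called in both, with 1.80 ± 0.25 in KO-labelled (adjusted p = 0.000178) and 2.10 ± 0.25 in WT libraries (adjusted p = 2.57e-06), and overlaps Phrf1 by 45 exon bases on the other strand. Without a mean-variance trend the call in KO-labelled libraries was lost (adjusted p = 0.0548).

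Stat2, the partner of Irf9 at the ISRE, had 25, 29 and 49 reads in KO-LPS against 16, 37 and 14 in KO-Saline libraries, and 85, 82 and 93 in WT-LPS against 13, 21 and 22 in WT-Saline libraries. The WT groups were far apart (2.21 ± 0.37, adjusted p = 0.000145), and the KO-labelled groups overlapped (0.69 ± 0.37, adjusted p = 0.346). Between genotypes under LPS its log2 difference was -1.18 ± 0.37 and did not pass (adjusted p = 0.838). Irf9, which overlaps Rnf31 on the same strand, had 0.015 ± 0.29 in KO-labelled libraries (adjusted p = 0.991) and rose by 1.01 ± 0.29 in WT libraries (adjusted p = 0.0217). Leaving out WT-Saline replicate 1 or 3, or WT-LPS replicate 1 or 2, ended the WT call (adjusted p up to 0.0832).

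The enzymes that attach Isg15 to proteins and remove it were 5 of 7 measured. None was called higher in KO-labelled libraries and 4 were in WT libraries. Their estimates lay above 0 for all 5 in KO-labelled and for 4 in WT libraries. The WT count of calls was 2 when WT-Saline replicate 3 or any WT-LPS replicate was left out and 1 without a mean-variance trend. In KO-labelled libraries the count was 1 when KO-Saline replicate 1 or KO-LPS replicate 1 was left out. Of all genes 1.99% were called higher with LPS in KO-labelled and 6.72% in WT libraries. Ube2l6, the conjugating enzyme, had 0, 7 and 9 reads in KO-LPS against 0, 2 and 1 in KO-Saline libraries, a pooled ratio of 5.36 (1.53 to 28.7; adjusted p = 0.543). It had 24, 22 and 31 reads in WT-LPS against 0 in each WT-Saline library, which is at least 8.38-fold higher taking 3 reads per library as the floor (adjusted p = 0.000556). Usp18, which removes Isg15 and also restrains the interferon receptor, had 107 reads in KO-LPS against 39 in KO-Saline libraries (1.43 ± 0.49, adjusted p = 0.114) and 157 in WT-LPS against 48 in WT-Saline libraries (1.71 ± 0.49, adjusted p = 0.0201). It overlaps Gm44148 by 124 exon bases on the other strand. The WT call ended when WT-Saline replicate 2 or 3, or WT-LPS replicate 2 or 3, was left out (adjusted p up to 0.116), and in KO-labelled libraries Usp18 passed without KO-LPS replicate 1 (adjusted p = 0.00828). Usp18 was the called gene among 7 negative regulators, of which none was called in KO-labelled libraries. With 6.72% of all genes called higher in WT libraries, 1 call among 7 says little about that list. Herc6, the ligase for Isg15 in mice, overlaps Gm45193 on the same strand and had 2.69 ± 0.85 in both genotypes (adjusted p = 0.0831 in KO-labelled and 0.037 in WT libraries). Its WT call did not hold without WT-Saline replicate 1 or 3 or any WT-LPS replicate (adjusted p up to 0.136), and it passed in KO-labelled libraries without KO-Saline replicate 1 (adjusted p = 0.0299).

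Of 43 measured other antiviral interferon-stimulated genes, 8 were called higher in KO-labelled libraries, where 1.99% of all genes were called higher. In WT libraries 23 were called higher, where 6.72% of all genes were, and none was called lower in either genotype. Estimates lay above 0 for 36 of the 43 in KO-labelled and for 39 in WT libraries. Without a mean-variance trend in the model the counts were 0 in KO-labelled and 13 in WT libraries, and a fit of the KO-labelled libraries alone gave 5. The count in KO-labelled libraries was 13 when KO-LPS replicate 1 was left out, 3 for replicate 2 and 5 for replicate 3. Their median log2 fold change was 0.79 in KO-labelled and 1.35 in WT libraries, the second 1.34 with genes that had no saline reads set to their bound. Lgals3bp had 39 reads in KO-LPS against 1 in KO-Saline libraries, a ratio of 39.2 (6.63 to 1590; adjusted p = 0.0287; up to 0.242 without KO-Saline replicate 1 or 3 or KO-LPS replicate 2 or 3). With 106 reads in WT-LPS against 0 in WT-Saline libraries, it stood at least 11.5-fold higher there (adjusted p = 7.70e-05). Zbp1, a sensor of nucleic acids in the Z form, rose by 2.53 ± 0.51 in KO-labelled libraries (adjusted p = 0.0048; 0.0883 without KO-LPS replicate 2) and by 3.71 ± 0.51 in WT libraries (adjusted p = 1.39e-05). Oas1g had 34 reads in KO-LPS against 3 in KO-Saline libraries (ratio 11.4, 3.58 to 58; adjusted p = 0.0724). It passed when KO-Saline replicate 1 was left out (adjusted p = 0.032) and when KO-LPS replicate 1 was (adjusted p = 0.0247), and also with voom precision weights (adjusted p = 0.0304) and on log2(CPM + 5) (adjusted p = 0.0459). In WT libraries Oas1g had 31 reads in LPS against 0 in saline, at least 3.44-fold higher (adjusted p = 0.00507). Without a mean-variance trend the calls of Lgals3bp (adjusted p = 0.0601) and Zbp1 (adjusted p = 0.107) in KO-labelled libraries were lost, as were those of Irf9 (adjusted p = 0.0731), Usp18 (adjusted p = 0.108) and Herc6 (adjusted p = 0.18) in WT libraries.

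**Figure D4:**
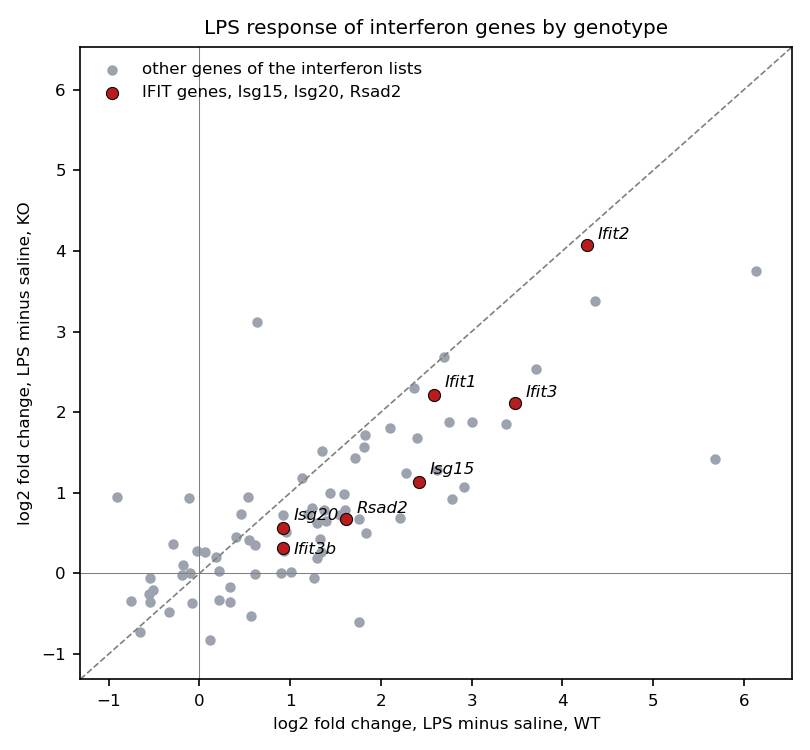
Log2 fold change with LPS in WT libraries (x axis) against that in KO-labelled libraries (y axis) for the measured genes of the interferon lists (grey) and the 7 genes described here (red). The dashed line marks equal values, and all 7 red points lie below it, nearest for Ifit2 (4.07 in KO-labelled, 4.27 in WT) and farthest for Ifit3 (2.11 in KO-labelled, 3.48 in WT).

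Under LPS none of these listed genes was called between genotypes, where 0% of all genes was. The median difference of KO-LPS minus WT-LPS was -0.35 for the 43 antiviral genes, -0.30 for the signal factors and -0.26 for the Isg15 enzymes. It was -0.32 for the negative regulators, -0.32 for the other measured genes of the IFIT cluster and 0.08 for the receptors and kinases. Over all genes it was -0.01.

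Markers of other blood cells also stood at other levels with LPS. The summed level of 5 measured of 8 dendritic cell markers was 27.1 to 160 CPM in KO-LPS and 35.3 to 73.5 CPM in WT-LPS libraries, against 150 to 200 CPM in KO-Saline and 206 to 334 CPM in WT-Saline libraries. Clec9a was at 0 in WT-LPS libraries, and Siglech, Flt3 and Batf3 are not among the genes of the table. The sum includes Bst2, which is also on the list of other antiviral genes and went the other way. Bst2 had 7 reads in KO-LPS against 3 in KO-Saline libraries, and 20 in WT-LPS against 2 in WT-Saline libraries. For 3 of 6 platelet markers it was 217 to 496 CPM in KO-LPS and 161 to 255 CPM in WT-LPS libraries, against 651 to 837 CPM in KO-Saline and 523 to 779 CPM in WT-Saline libraries, with Clec1b at 0 in WT-LPS libraries. In WT libraries both sums were lower with LPS without overlap, while in KO-labelled libraries this held for the platelet sum and the dendritic cell sums overlapped. Cd79a, the measured one of 5 B cell markers, had 34.7 to 104 CPM in KO-LPS and 101 to 134 CPM in WT-LPS libraries, against 7.3 to 28.9 CPM in KO-Saline and 9.68 to 29.6 CPM in WT-Saline libraries. It was higher with LPS without overlap in both genotypes, the direction of the members. For 5 of 8 monocyte and macrophage markers the sum was 349 to 550 CPM in KO-LPS and 506 to 654 CPM in WT-LPS libraries, against 391 to 438 CPM in KO-Saline and 353 to 460 CPM in WT-Saline libraries, and Fcgr1 was at 0 in both saline groups. This sum was higher with LPS without overlap in WT libraries, as the members were, and overlapped in KO-labelled libraries. For 2 of 7 T and NK cell markers it was 66.5 to 128 CPM in KO-LPS and 84.4 to 213 CPM in WT-LPS libraries, against 80.3 to 155 CPM in KO-Saline and 119 to 165 CPM in WT-Saline libraries. The 1 measured of 5 erythroid markers was at 2.62 to 37.9 CPM over all libraries. The part of these cells in the members' levels was not tested.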

How the data were processed

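The table as deposited holds normalized log2 values for 9374 genes and 12 libraries. The deposited log2 values had the form of log2 CPM with 0.5 reads added: undoing it gave whole reads, within 0.0001, for 100.0% of each column. The build was mm10, per the submitters' processing notes. The sources used here do not give the aligner, counter, strand setting or gene filter. Libraries were made from total RNA (miRNeasy kit) with a Tecan Universal Plus kit, per the labels' protocols. The scaling factors ran from 0.938 to 1.044, and 9372 IDs had a symbol.

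The log2 values were fitted with limma 3.58.1 (R 4.3.3) as 4 group means over all 12 libraries with a mean-variance trend, two-sided, and p-values were adjusted by Benjamini-Hochberg within each comparison over all 9374 genes. CPM and recovered reads served for levels and counting intervals. The fit was tried on simulated data with large changes for LPS against saline in WT only. That trial does not cover smaller changes, the genotype comparisons or the interaction. Where a group had 0 reads, the fold is a bound against 3 reads per library. Promoters, annotation and transcripts were RefSeq (GRCm38.p6) and GENCODE M21.

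Members and gene lists were chosen with earlier results of these data known. Named beside the members are up to 3 called genes of each list with the largest change in WT, direct neighbours, and the 6 genes most like the members. Alternatives were another pseudocount (5 CPM), no trend, voom weights, median centring, a filter at the median level, 2 groups alone, a replicate block and each library left out.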

Additional observations from a re-analysis of the deposited data

How the results depend on the processing

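Of 778 member estimates under an alternative, 747 kept their direction and their side of the threshold, 7 lost and 2 gained a call, and 22 changed sign, all 22 of estimates that were not called. Called members numbered 3 in KO-labelled and 5 in WT libraries under voom weights, log2(CPM + 5), median centring and the replicate block; the median filter removed Ifit2. Without a trend the calls were 0 members and 16 genes in KO-labelled libraries, 363 genes in WT, and 0 genes for KO against WT in saline and averaged. With only the 2 groups compared they were 82 genes in KO-labelled libraries and 22 for KO against WT in saline. Voom weights called 1 gene for KO against WT in LPS, 2 in saline and 2 for the interaction, and log2(CPM + 5) called 4 in saline. With a library left out, LPS in KO-labelled libraries gave 1 to 3 members and 32 to 1076 genes. KO against WT gave 0 to 2 genes in LPS, 0 to 31 in saline and 0 to 11 averaged, and the interaction 0 to 7.

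Sign changes with a library left out concerned Ifit3b with LPS in KO-labelled libraries (-0.12 to 0.75). For KO against WT in saline they concerned Ifit2 (-1.35 to 0.29), Ifit3b (-0.55 to 0.20), Isg15 (-0.37 to 0.36) and Rsad2 (-0.30 to 0.26; -0.0027 with voom weights). They concerned averaged Ifit3 (-0.19 to 0.25; -0.0021 with voom weights and -0.034 with log2(CPM + 5)) and the interaction of Ifit1 (-0.98 to 0.10) and Ifit2 (-1.04 to 0.61). The cause was not tested. Whether the replicate numbers pair the libraries was not settled. Over all genes, same-numbered libraries correlated at -0.066 to 0.04 in their deviations from the group mean, and other pairs at -0.064 to 0.052. With few reads per gene, counting error can hide a shared deviation from these correlations. With the number as a block, 3 members in KO-labelled and 5 in WT libraries were called, as were 336 genes in KO-labelled libraries, 1086 in WT libraries and 2 genes for KO against WT averaged. Herc6 also passed in KO-labelled libraries with the block (adjusted p = 0.0448), so that 1 of the Isg15 enzymes was called there. Negative binomial count tests on recovered reads were not run. Single libraries hold few reads of Ifit2 in saline, which limits its fold change.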
